A study of Mus musculus with 4 samples.

Results

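The 10 genes described here encode acute-phase, calprotectin and complement proteins: Saa3, S100a8, S100a9, Lcn2, Hp, Cfb, C3, C1qa, C1qb and C1qc. They were taken by symbol from the 31053 genes of a single-cell RNA-seq study of mouse colon, and each symbol matched 1 row in every library. All mice were wild-type (WT) C57BL/6. One group was put under restraint stress every day for 7 days and the other received the control treatment. CD45+ leukocytes were then sorted from whole colon and made into 10x Genomics libraries, 2 control and 2 stress. Age, sex and the number of mice per library were not given in the sources used here, and nothing says that the libraries came from separate animals, so each p-value measures only the spread between these libraries.

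Acute-phase proteins are made in larger amounts when tissue is inflamed or infected, mostly by the liver but also by myeloid cells and epithelium at the site. Calprotectin is a pair of S100 proteins stored in the cytoplasm of neutrophils and is measured in stool as a sign of intestinal inflammation. Complement is a cascade of serum proteins in which C1q starts the classical pathway, C3 is the protein on which all pathways meet, and factor B drives the alternative pathway; macrophages of the gut are a known local source of C1q.

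The libraries held 12552824, 20162123, 33891484 and 36370030 UMIs (unique molecular identifiers, each standing for 1 captured transcript) for control 1, control 2, stress 1 and stress 2, in 2562, 5443, 8333 and 4138 barcodes. Barcodes under 500 UMIs or with over 10% of UMIs from mitochondrial genes had been dropped, which left these 20476. Median UMIs per barcode were 2938, 2675, 2174 and 4547, so stress 2 was the deepest library per cell. Each pair of libraries shared between 3 and 12 barcodes. Each barcode was placed in the gate of the class with the most detected markers out of 8, and no member is a marker. A gate is a set of transcripts and not a measured protein. Ptprc, which encodes CD45, had a UMI in 67.5, 79.1, 73.9 and 84.8% of barcodes, and in 92.1 to 97.3% of monocyte-gated barcodes. Control 1 stood apart: it held 276 barcodes in the stromal gates (fibroblast, epithelial and endothelial), against 6, 18 and 9 in the others, and Ptprc was seen in 3.62% of those 276. The monocyte gate held 63, 47, 360 and 185 barcodes and the macrophage gate 222, 46, 129 and 141, with 12, 12, 67 and 34 tied between both classes. The neutrophil gate held 1, 9, 27 and 42. A margin of 1 marker placed 32.4% of monocyte-gated and 31.04% of macrophage-gated barcodes.

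The genes lie at 7 places in the mouse genome (GENCODE vM21 on GRCm38, which is mm10). Saa3 (ENSMUSG00000040026) is on chromosome 7 at 46711998 to 46715700. S100a8 (ENSMUSG00000056054) and S100a9 (ENSMUSG00000056071) lie on chromosome 3, at 90668978 to 90670035 and 90692632 to 90695721, 22596 bases apart. Lcn2 (ENSMUSG00000026822) is on chromosome 2 at 32384633 to 32388252 and Hp (ENSMUSG00000031722) on chromosome 8 at 109575128 to 109579172. Cfb (ENSMUSG00000090231) and C3 (ENSMUSG00000024164) are far apart on chromosome 17, at 34856374 to 34862518 and 57203970 to 57228136. The C1q genes form a tandem on chromosome 4 with gaps of 3616 and 2851 bases: C1qb (ENSMUSG00000036905) at 136880129 to 136886187, C1qc (ENSMUSG00000036896) at 136889804 to 136893065 and C1qa (ENSMUSG00000036887) at 136895917 to 136898803. All 10 are annotated as protein-coding.

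RefSeq promoter windows on GRCm38.p6, from 250 bases before to 50 bases after a transcript start, were found for 7 of the 10 genes (Saa3, S100a8, S100a9, Lcn2, C3, C1qb and C1qc). C/EBP proteins are transcription factors of the acute phase and of myeloid cells, and one form of their site was searched as TTGCNNAA on both strands. The letters occurred in 4 of the 7 windows, and in 10.8% of all 32851 windows of the same length. The 250 bases before the start are printed for these 4 genes, 5′ to 3′ on the gene's own strand, because they carry the match, which is in capitals. It begins 99 bases before the start in Saa3, 45 in C3, 236 in S100a9 and 216 in Lcn2. A second pattern, TTCNNNGAA, searched in the same way, occurred in 0 of the 7 windows and in 8.30% of all windows. For Saa3, S100a8, Lcn2 and C1qc the RefSeq start lies inside the GENCODE gene.

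Saa3 (chr7:46715677-46715926, minus strand): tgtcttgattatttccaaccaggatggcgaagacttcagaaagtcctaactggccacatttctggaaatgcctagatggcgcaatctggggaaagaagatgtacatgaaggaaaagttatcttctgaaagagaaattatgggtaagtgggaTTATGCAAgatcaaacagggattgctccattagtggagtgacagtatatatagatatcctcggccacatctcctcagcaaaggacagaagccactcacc
C3 (chr17:57228137-57228386, minus strand): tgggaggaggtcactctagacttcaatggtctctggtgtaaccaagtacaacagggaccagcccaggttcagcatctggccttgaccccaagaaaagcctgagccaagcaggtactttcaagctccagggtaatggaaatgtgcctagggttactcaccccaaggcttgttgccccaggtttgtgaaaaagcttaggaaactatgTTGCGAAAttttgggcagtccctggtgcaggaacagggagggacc
S100a9 (chr3:90695722-90695971, minus strand): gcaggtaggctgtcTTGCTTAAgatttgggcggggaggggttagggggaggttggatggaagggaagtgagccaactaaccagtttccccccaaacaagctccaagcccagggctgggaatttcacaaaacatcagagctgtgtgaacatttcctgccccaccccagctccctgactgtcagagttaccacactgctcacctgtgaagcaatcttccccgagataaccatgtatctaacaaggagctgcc
Lcn2 (chr2:32387740-32387989, minus strand): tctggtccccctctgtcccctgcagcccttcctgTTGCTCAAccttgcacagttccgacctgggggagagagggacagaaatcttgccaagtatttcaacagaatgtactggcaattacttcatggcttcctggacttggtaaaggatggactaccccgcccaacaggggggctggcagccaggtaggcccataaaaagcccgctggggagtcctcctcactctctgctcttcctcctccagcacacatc

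The Saa3 match is on the opposite strand to the other 3. A match is a run of letters and not a measured binding site.

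The 10 genes fell into 3 groups by the gates that held their UMIs. S100a8, S100a9 and Lcn2 lay in the neutrophil gate, with 95.5% of 3298, 96.3% of 5073 and 89.6% of 115 UMIs over the 4 libraries. For Saa3, Hp, Cfb and C3 the monocyte gate held the largest share, with 61.8% of 288, 73.8% of 1729, 40.9% of 367 and 45.5% of 1600 UMIs. This pooled share did not hold in every control: the monocyte gate held 0 of the 15 and 0 of the 23 Saa3 UMIs of the controls, 1 of the 10 Cfb UMIs of control 2 and 13.4% of the C3 UMIs of control 1. C1qa, C1qb and C1qc lay in the macrophage gate, with 71.8% of 14562, 66.5% of 16962 and 71.8% of 8877 UMIs. Each gate's sum was scaled to that gate's UMI total in that library and given as counts per 1000000 (CPM).

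**Figure D1:**
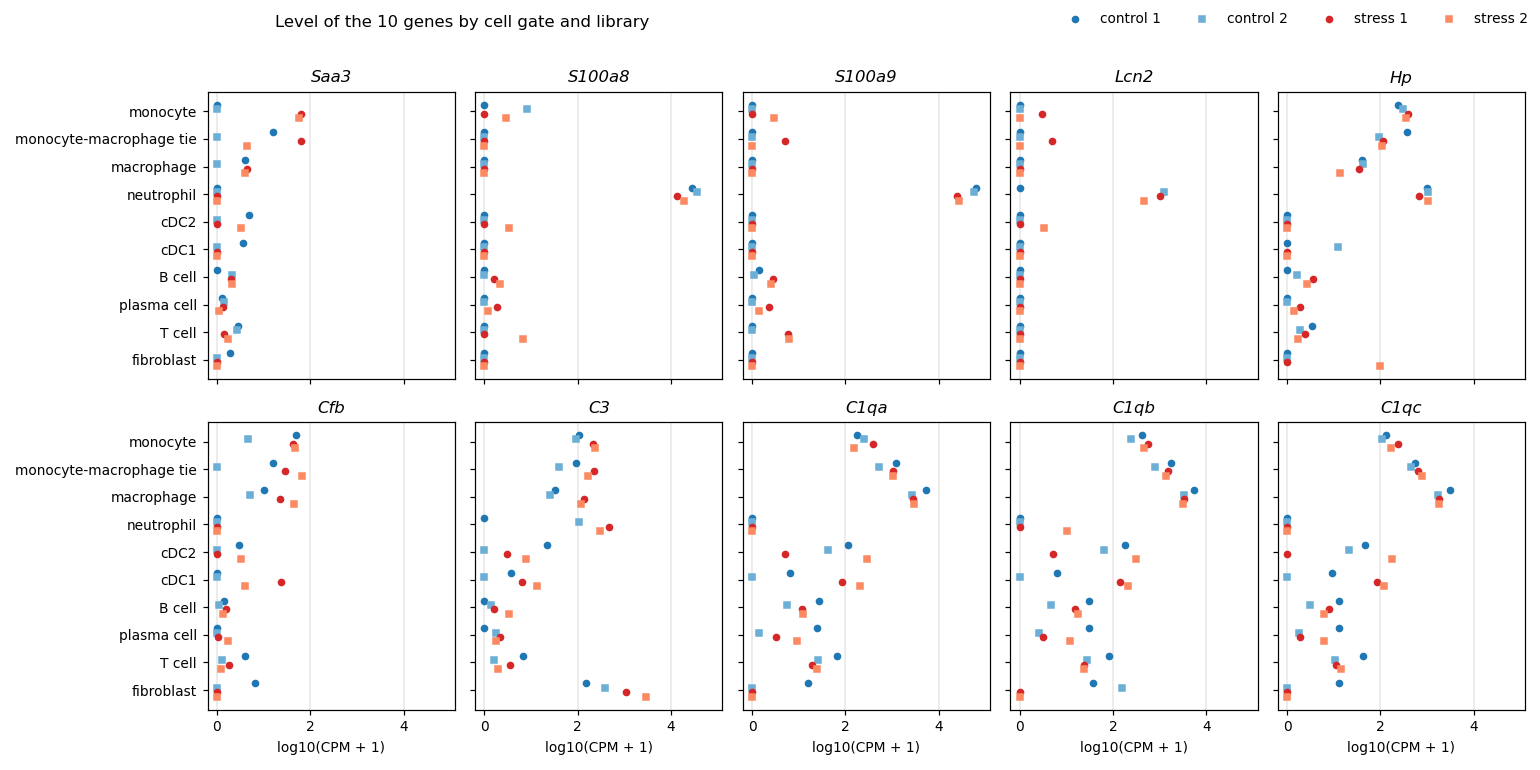
Level of each gene, as log10(CPM + 1), in 10 cell gates; each point is 1 library (circles replicate 1, squares replicate 2, blue control, red or orange stress). S100a8, S100a9 and Lcn2 stand out in neutrophil-gated cells, C1qa, C1qb and C1qc in macrophage-gated cells, and Saa3 is at 0 in both control libraries but not in the stress libraries of the monocyte gate. Neutrophil points rest on 1, 9, 27 and 42 cells and fibroblast points on 233, 5, 8 and 1.

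**Figure D2:**
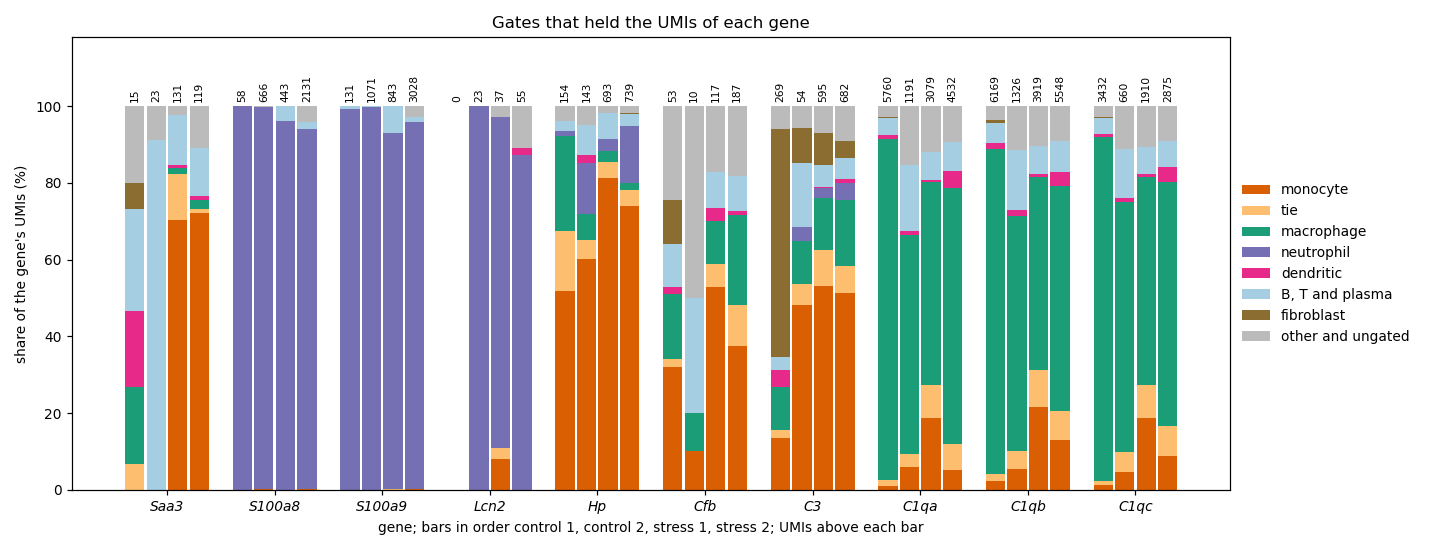
Share of each gene's UMIs, in percent, that lay in each cell gate; each bar is 1 library and the number above it is the gene's UMIs in all kept cells of that library. In the stress libraries 70.2 and 72.3% of Saa3 UMIs were in the monocyte gate, and in control 1 59.5% of C3 UMIs were in the fibroblast gate.

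Over all cells of a library, none of the 10 genes passed the test of stress against control. It called 0 of 13241 genes (percent called 0), with 872 at an unadjusted p under 0.05, while DESeq2 called 159 genes and no member. The count turned on the controls: without control 1 it was 3017 genes and 5 members (Saa3, Hp, Cfb, C3 and C1qb), and without control 2 it was 2866 genes and 6 members (Saa3, Hp, Lcn2, C1qa, C1qb and C1qc). In each such fit the group left with a single library is assumed to vary like the other. In such sums, a change in the number of cells of a type and a change in RNA per cell cannot be told apart. Saa3 measured 1.20 and 1.14 CPM in controls against 3.87 and 3.27 under stress (log2 difference 1.81, SE 0.32, edgeR adjusted p = 0.733). Hp measured 12.3 and 7.09 CPM against 20.4 and 20.3 (log2 1.27, SE 0.34, edgeR adjusted p = 0.733). For Saa3 and Hp the stress libraries were above both controls. The share of all 13241 genes tested that split in this way was not counted, so the split alone does not set Saa3 and Hp apart. For each of the other 8 genes the groups overlapped. C3, for example, was at 21.4 and 2.68 CPM in controls and 17.6 and 18.8 under stress, and the fibroblast gate held 160 of the 269 C3 UMIs of control 1. C1qb was at 491 and 65.8 CPM in controls and 116 and 153 under stress, and macrophage-gated cells made up 8.67% of the barcodes of control 1 against 0.845, 1.55 and 3.41% in the others.

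Saa3, a serum amyloid A protein that in mice is made outside the liver by macrophages and epithelium, was the member with the clearest split between groups in monocyte-gated cells, and most of its transcripts came from a few cells. It measured 0 and 0 CPM in the controls, 61.9 CPM in stress 1 and 55.8 CPM in stress 2, from 0, 0, 92 and 86 UMIs. The stress libraries were far above the controls, which had no UMI. Taken over the group, 3 UMIs in the controls would be 4.80 CPM, and the pooled stress level was 12.2-fold above that floor. This is no lower limit on the change. The UMIs were clustered, with 53 and 51 in 1 barcode of each stress library. The controls held 63 and 47 monocyte-gated cells. Saa3 rose by edgeR's test (adjusted p = 0.0441; fitted log2 8.75, SE 1.03, which depends on the prior count and is no bound). With no UMI in the controls, it passed the filter on low counts only through the stress libraries, where it is high, so the call is no separate support for the split. It was 1 of 3 genes called among 6675 tested in this gate (percent called 0.0449), 1 of them higher and 2 lower under stress. The call was lost with DESeq2 (log2 6.63, adjusted p = 0.0562), with RLE scaling in edgeR (log2 8.74, adjusted p = 0.0522) and with classes taken from clusters (log2 3.84, edgeR adjusted p = 0.0849).

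The Saa3 UMIs of the stress libraries sat in 11 of 360 and 9 of 185 monocyte-gated cells. These are shares of 3.06% (95% Clopper-Pearson interval 1.53 to 5.40) and 4.86% (2.25 to 9.03). In the controls the counts were 0 of 63 cells, which allows a share of up to 5.69%, and 0 of 47, which allows up to 7.55%. These limits concern cells with a UMI at each library's depth, not cells that express the gene. Thinned to 1000 UMIs a cell, the counts were 0 of 62, 0 of 46, 5 of 358 (1.40%) and 5 of 181 (2.76%). The intervals cover counting error within a library only, and the share was not tested between the groups. In B-cell-gated cells, a type not known for Saa3, the share with a UMI was 0, 0.299, 0.212 and 0.524%, in T-cell-gated cells 0.624, 0.621, 0.108 and 0.369%, at median depths of 1660 to 3393 UMIs in B cells and 2212 to 4722 in T cells against 4261 to 9027 in monocytes. No B-cell or T-cell barcode held more than 2 Saa3 UMIs. Some smaller gates had shares like those of the stress monocytes, with 1 UMI a cell. In control 1 they were 3 of 68 group 2 innate lymphoid cells (4.41%) and 1 of 12 tied barcodes (8.33%). In stress 1, 1 of 19 plasmacytoid dendritic cells (5.26%) had a UMI. The neutrophil gate and the gate of NK cells and ILC1 had 0 in every library.

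A single barcode held 53 of the 92 Saa3 UMIs of stress 1 (57.6%), and another held 51 of the 86 of stress 2 (59.3%). Without the barcode with the most UMIs of the gene in each library, the fitted log2 was 7.48 and Saa3 no longer passed (edgeR adjusted p = 0.100). Leaving out any one library left the fitted log2 at 8.33 to 9.04. Each such fit still set controls with 0 UMIs against high stress libraries, and 1 group had a single library. It is therefore no separate support for the split. Over all gates, 9 barcodes held 5 or more Saa3 UMIs, and all 9 were in stress libraries: 6 in the monocyte gate, 2 in the monocyte-macrophage tie and 1 ungated. None was among the barcodes left out as likely doublets. The leading barcode of stress 1 had 5748 UMIs in all, with 4 monocyte markers, 3 macrophage markers, 9 C3 UMIs and 6 Cfb UMIs. Another barcode of stress 1, with 25 Saa3 UMIs, also had 4 monocyte and 3 macrophage markers. Both thus entered the monocyte gate by a margin of 1 marker. A stricter gate asks for a margin of at least 2. With it and at least 20 cells a library, chosen after seeing the data, Saa3 was not among the genes tested. The leading barcode of stress 2 had 14662 UMIs, with 7 monocyte markers, 2 macrophage markers, 7 C3 UMIs and 10 Hp UMIs. Saa3 in macrophage-gated cells was at 3.07, 0, 3.38 and 2.94 CPM, from at most 3 UMIs a library, with no split between the groups.

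**Figure D3:**
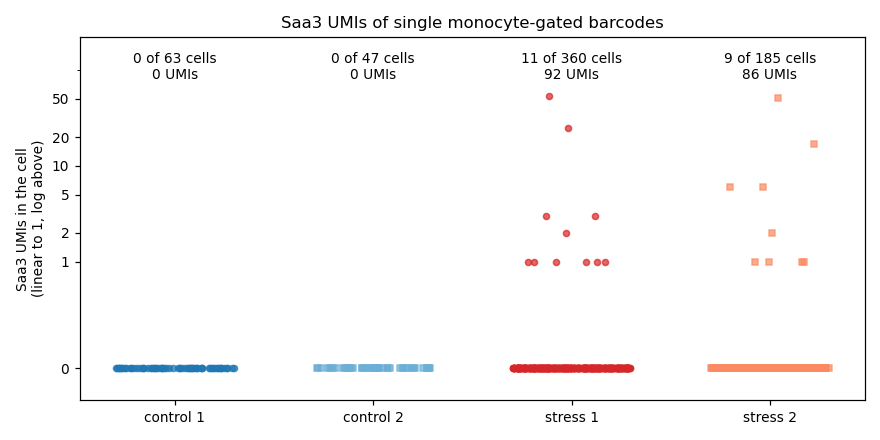
Saa3 UMIs in each monocyte-gated barcode by library, on an axis that is linear up to 1 UMI and logarithmic above, with points spread sideways at random. Both control libraries hold only barcodes at 0, and in each stress library 1 barcode lies above 50 UMIs while most of the others with a UMI lie at 1 to 6.

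C3, the central complement protein, rose in macrophage-gated cells. It measured 30.7 and 24.1 CPM in the controls against 137 and 115 CPM under stress, from 30, 6, 81 and 117 UMIs. Both stress libraries were above both controls, with a log2 difference of 2.03 (SE 0.28, edgeR adjusted p = 0.00538; DESeq2 adjusted p = 0.01997). C3 was the only member called among the 6 tested in this gate, where 48 of 6402 genes were called (percent called 0.75), 27 higher and 21 lower. The share of macrophage-gated cells with a C3 UMI was 8.56 and 10.9% in controls and 30.2 and 33.3% under stress. Thinned to 1000 UMIs a cell, which left out 54, 4, 7 and 25 cells, it was 2.98 and 7.14% against 9.84 and 10.3%. The order of the groups stayed the same, with a smaller gap. In B-cell-gated cells the share with a C3 UMI was at most 0.420%. With classes from clusters, C3 in macrophages did not pass (log2 1.64, edgeR adjusted p = 0.104), and under each of the other alternatives tried it passed.

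In monocyte-gated cells C3 measured 105 and 92.2 CPM in the controls against 213 and 227 CPM under stress, from 36, 26, 316 and 350 UMIs. The groups did not overlap and the log2 difference was 1.12 (SE 0.20), but it did not pass (edgeR adjusted p = 0.110; unadjusted p = 0.000198). The log2 difference was 1.27 without control 1, 0.99 without control 2, 1.18 without stress 1 and 1.09 without stress 2. Each of these fits had a single library in 1 group. C3 passed with the tied barcodes added, chosen after seeing the data (log2 1.19, edgeR adjusted p = 0.0281), and without a filter on low counts (1.21, 0.0140). The share of monocyte-gated cells with a C3 UMI was 33.3, 34.0, 45.0 and 65.4%, and 6.45, 15.2, 15.9 and 21.5% after thinning. In contrast to Saa3, no barcode held more than 16.7% of a library's C3 UMIs in the stress or control 1 monocytes, and at most 19.2% in control 2. The difference between the 2 gates in the size of the C3 change did not pass (log2 of monocyte minus macrophage -0.94, SE 0.36, edgeR adjusted p = 0.495).

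Cfb, the serine protease of the alternative pathway convertase, was low and uneven. In macrophage-gated cells it measured 9.21 and 4.02 CPM in the controls against 22.0 and 43.1 CPM under stress, from 9, 1, 13 and 44 UMIs. Both stress libraries were above both controls (log2 2.00, SE 0.52), but the difference did not pass (edgeR adjusted p = 0.153). It passed without a filter on low counts (log2 2.02, edgeR adjusted p = 0.00615). Leaving out each library in turn gave log2 1.37 to 3.06. In monocyte-gated cells Cfb measured 49.6 and 3.55 CPM in the controls and 41.7 and 45.4 CPM under stress. Control 1 was as high as the stress libraries and control 2 far below, with 17 UMIs in 6 cells against 1 UMI. The direction turned on which control was kept: log2 0.58 with both, 3.60 without control 1 and -0.26 without control 2.

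Hp encodes haptoglobin, which binds free haemoglobin and is stored in granules of neutrophils. It measured 234 and 305 CPM in monocyte-gated controls against 380 and 354 CPM under stress. The stress libraries were above the controls, but the log2 difference of 0.43 (SE 0.18) did not pass (edgeR adjusted p = 0.564). After thinning to 1000 UMIs, the share of monocytes with an Hp UMI was 17.7, 32.6, 23.5 and 21.0%, and the groups overlapped. In macrophage-gated cells Hp was lower, at 38.9, 40.2, 33.8 and 12.7 CPM (log2 -0.95, SE 0.42, edgeR adjusted p = 0.508), and 1 barcode of control 1 held 29 of its 38 UMIs.

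**Figure D4:**
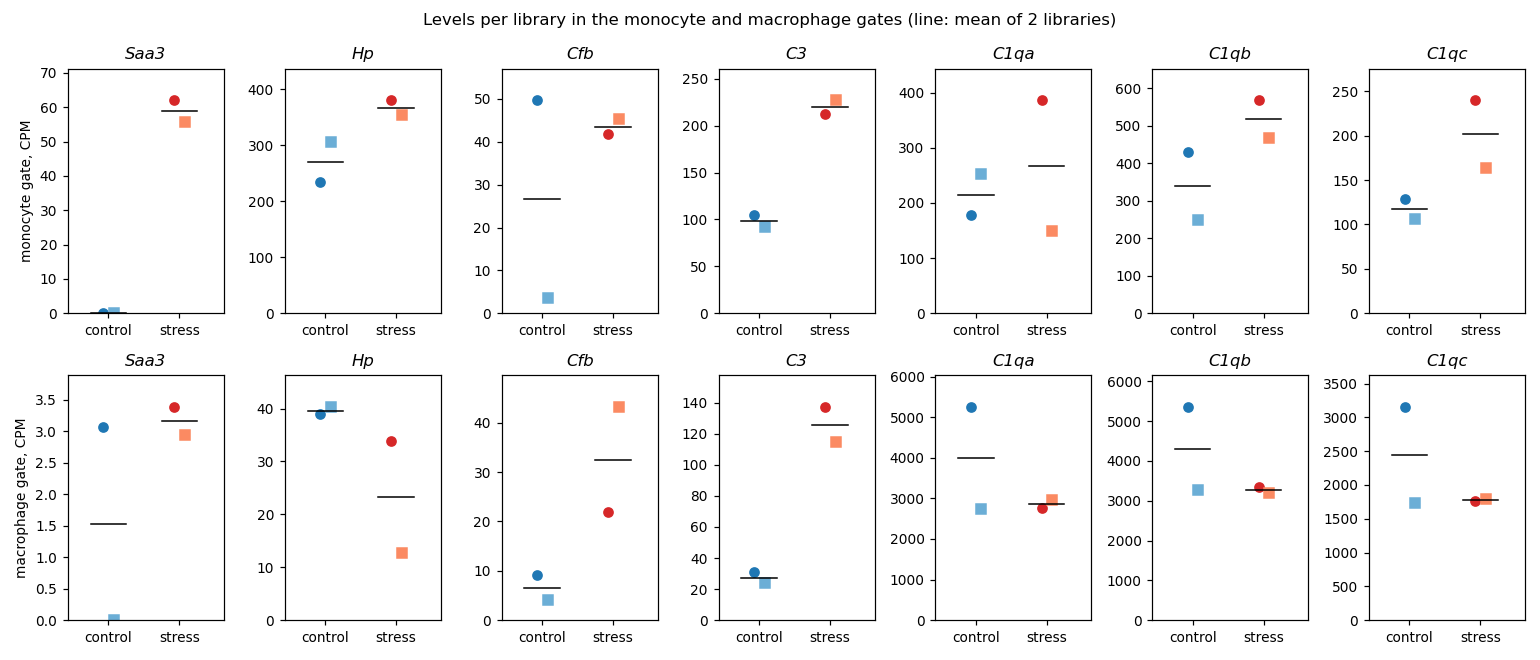
CPM of 7 genes in the monocyte gate (top) and macrophage gate (bottom), 1 point per library and a line at the mean of the 2 libraries; each axis starts at 0 and has its own range. C3 lies at 24.1 and 30.7 CPM in control macrophages and at 115 and 137 under stress, and in the C1q panels of the macrophage gate control 1 lies above the other 3 libraries.

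The C1q genes, whose A, B and C chains assemble into the recognition molecule of the classical pathway, were high in macrophage-gated cells of every library. C1qa measured 5242, 2735, 2754 and 2970 CPM, C1qb 5347, 3277, 3334 and 3200, and C1qc 3147, 1733, 1757 and 1788, in the order control 1, control 2, stress 1, stress 2. Control 1 stood above the other 3 libraries for each gene, and control 2 and the stress libraries lay close together. The log2 differences were -0.55, -0.47 and -0.53, with edgeR adjusted p-values of 0.612, 0.612 and 0.600. Without control 1 they were 0.07, 0.00 and 0.04, and without control 2 they were -0.96, -0.80 and -0.92. Each such fit had a single control library. The summed level of the 8 macrophage markers in this gate was 31294 CPM in control 1 against 10279, 12965 and 14231 CPM, and its part in the result was not tested. C1qa gave 35.1 to 38.2% of the C1q UMIs of a library, C1qb 38.9 to 42.5% and C1qc 22.4 to 22.9%. All 3 chains were detected in 85.6, 60.9, 77.5 and 78.0% of macrophage-gated cells.

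In monocyte-gated cells the C1q genes were much lower and came from a minority of cells. C1qb measured 429 and 248 CPM in the controls against 568 and 469 CPM under stress (log2 0.57, SE 0.25, edgeR adjusted p = 0.572). C1qc measured 128 and 106 CPM against 240 and 164 CPM (log2 0.75, SE 0.25, edgeR adjusted p = 0.437), and C1qa 178 and 252 CPM against 386 and 148 CPM (log2 0.30, SE 0.55, edgeR adjusted p = 0.928). The groups did not overlap for C1qb and C1qc and did for C1qa. The share of all genes tested in this gate that split in this way was not counted. Without control 1 the log2 differences were 1.08 for C1qb and 0.94 for C1qc, and without control 2 they were 0.20 and 0.58. With a stricter gate (at least 3 markers, and at least 2 more than any other class) and a minimum of 20 cells in every library, chosen after seeing the data, C1qb (log2 3.51, edgeR adjusted p = 0.00577) and C1qc (3.62, 0.0269) passed. No C1q UMI was seen in 50 of 63, 45 of 47, 262 of 360 and 127 of 185 monocyte-gated cells, and cells with 20 or more C1q UMIs held 76.2, 99.4, 77.4 and 83.7% of the total. In control 2 that was 1 cell, with 170 of 171 C1q UMIs.

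The stress difference of C1qb and C1qc was larger in the monocyte gate than in the macrophage gate. In a fit that compares the 2 gates within each library, the difference of log2 changes was 1.06 for C1qb (SE 0.16, edgeR adjusted p = 0.00026) and 1.25 for C1qc (SE 0.24, edgeR adjusted p = 0.0173). They were 2 of the 7 members tested and 2 of the 18 genes called among 7009 (percent called 0.257). Neither passed with DESeq2 (adjusted p = 1.00 for each) or with classes from clusters (0.68 and 0.80, edgeR adjusted p = 0.0855 and 0.163), and neither passed without stress 1 (0.91 and 0.91, edgeR adjusted p = 0.0555 and 0.271) or without stress 2 (1.19 and 1.55, edgeR adjusted p = 0.0676 for each). C1qc also did not pass without control 1 (0.89, edgeR adjusted p = 0.148). For Hp the difference was 1.47 (SE 0.39, edgeR adjusted p = 0.163), and 0.86 to 2.09 with each library left out in turn. The Hp difference passed without a filter on low counts (1.52, edgeR adjusted p = 0.0275) or without likely doublets (1.49, edgeR adjusted p = 0.0399). For Saa3 it was 7.79 (edgeR adjusted p = 0.283) and for Cfb -1.81 (edgeR adjusted p = 0.448), with neither passing.

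Barcodes of the monocyte gate, the macrophage gate and the tie were also ordered by the number of macrophage markers minus the number of monocyte markers detected, in 5 steps from -8 to 8. C1qb was higher at each further step in every library, from 97.0 to 5815 CPM in control 1, 7.92 to 4457 in control 2, 126 to 4645 in stress 1 and 216 to 4274 in stress 2. Hp was highest at the monocyte end in 3 of the 4 libraries and lowest at the macrophage end in all but stress 1, from 327, 507, 518 and 496 CPM at the monocyte end to 2.53, 0, 39.7 and 0 at the macrophage end. C3 was above both controls in both stress libraries at each of the 5 steps, for example 202 and 266 CPM against 152 and 87.1 at the monocyte end and 104 and 105 against 24.0 and 14.8 at the macrophage end. Cfb was above both controls in both stress libraries at 4 of the 5 steps and not at the monocyte end, where control 1 measured 54.6 CPM against 18.2 and 34.0 under stress. The steps divide the same barcodes and libraries as the fits of these gates, so they are no separate support. The share of all genes that split in this way at the steps was not counted. Saa3 was at 117 CPM in the next step, at -2 and -1, in stress 1 and at 109 CPM at the monocyte end in stress 2, each time with the leading barcode. The middle step, at 0, holds 12 cells in each control, and the values there rest on few UMIs.

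**Figure D5:**
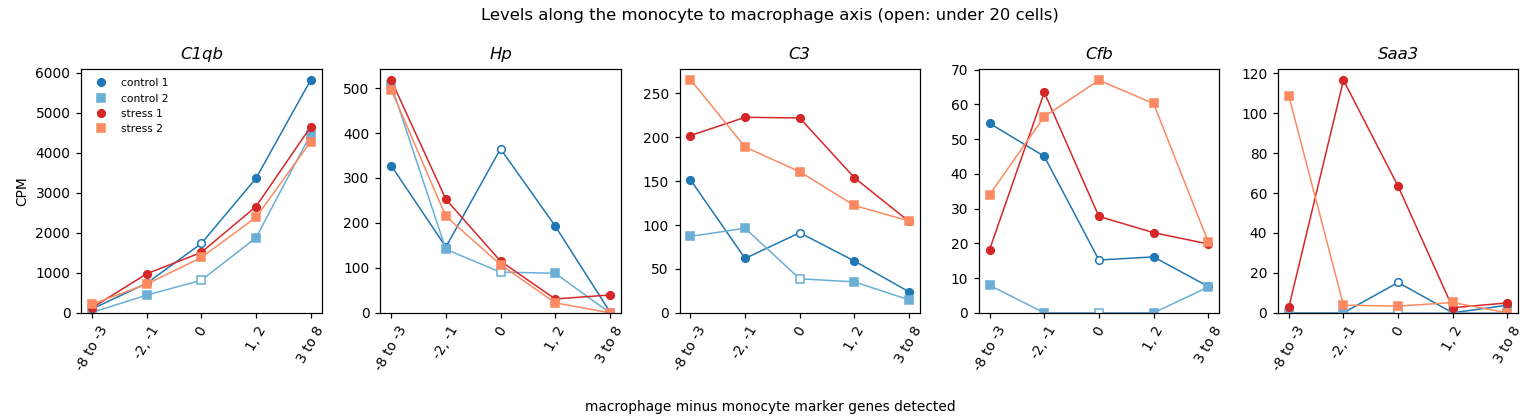
CPM of 5 genes in 5 steps of the number of macrophage markers minus monocyte markers detected per barcode, 1 line per library; open points rest on under 20 cells. C1qb is highest and Hp low at the macrophage end in all 4 libraries, C3 is higher in both stress libraries at every step, and the Saa3 peaks of the stress libraries lie at different steps.

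Neutrophil-gated cells held the calprotectin chains S100a8 and S100a9 and the iron-scavenging lipocalin Lcn2, and were too few for a test. S100a8 measured 28238 and 35519 CPM in controls and 13289 and 19164 under stress, and S100a9 63291 and 57324 CPM against 24425 and 27766. Both stress libraries were below both controls per neutrophil UMI, but control 1 is a single cell and control 2 is 9 cells. Lcn2 had 0, 23, 32 and 48 UMIs in this gate (0, 1232, 998 and 459 CPM), and Hp 2, 19, 21 and 109 UMIs (974, 1018, 655 and 1043 CPM). The share of kept barcodes in the neutrophil gate was 0.0390, 0.165, 0.324 and 1.01%, higher in both stress libraries than in both controls, and this share was not tested. The 2 calprotectin chains were seen together in 1 of 1, 8 of 9, 25 of 27 and 37 of 42 cells, and S100a8 gave 30.9, 38.3, 35.2 and 40.8% of their UMIs. C3 was also found in this gate, with 0, 2, 15 and 31 UMIs, the controls being at or under the floor of 3.

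Outside the neutrophil gate calprotectin was rare and unevenly spread. One of the 7 epithelial-gated cells of stress 2 held all 104 calprotectin UMIs of that gate and all 6 of its Lcn2 UMIs. One of the 1848 T-cell-gated cells of stress 1 held 22 of the 23 S100a9 UMIs there. Monocyte-gated cells had 0, 2, 0 and 3 S100a8 UMIs. In B-cell-gated cells, S100a9 measured 0.394 and 0.120 CPM in controls and 1.86 and 1.49 CPM under stress (log2 2.998, SE 0.85, edgeR adjusted p = 0.122). Hp in these cells measured 0, 0.600, 2.65 and 1.72 CPM (log2 2.18, SE 0.71, edgeR adjusted p = 0.184), with 17 of the 27 UMIs of stress 1 in 1 cell. None of the 5 members tested in B-cell-gated cells was called, where 69 of 10739 genes were called (percent called 0.643); of the members, 2 had an unadjusted p under 0.05, as did 1379 of all the genes tested, and DESeq2 called 0, with no adjusted p given for S100a9, Hp and C1qc. The direction of all 3 C1q genes turned on which control was kept (C1qb log2 2.02 without control 1 and -0.97 without control 2), each time with a single control library. C1q UMIs in lymphocyte gates came mostly from a few cells: in T-cell-gated cells 4, 7, 4 and 2 cells with 20 or more UMIs held 89.3, 92.0, 53.8 and 64.1% of them.

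In cells of the gate for conventional type 2 dendritic cells (cDC2), C1qa measured 111, 41.0, 4.19 and 296 CPM, and C1qb and C1qc followed the same order. The stress libraries held both the lowest and the highest value, and in stress 2, 3 of 42 cells held 94.7% of the C1q UMIs. None of the 3 members tested was called (log2 0.80 for C1qa, 0.16 for C1qb and 1.18 for C1qc, edgeR adjusted p = 0.959, 0.990 and 0.937), where 20 of 4818 genes were called (percent called 0.415); at an unadjusted p under 0.05 there were 0 members and 454 genes, and DESeq2 called 0. The direction turned on which stress library was kept. Without stress 1 the log2 differences were 1.82 for C1qa, 1.17 for C1qb and 2.22 for C1qc, and without stress 2 they ran from -4.26 to -6.98. Fibroblast-gated cells carried C3 at 147 CPM in control 1 (160 UMIs in 233 cells). In control 2, stress 1 and stress 2 it was at 380, 1098 and 2948 CPM, from only 5, 8 and 1 such cells.

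The wider pathways were read from 91 further genes in 7 lists. Of 6 receptors of the members tested in macrophage-gated cells, 1 fell and 0 rose: Cd36, a scavenger receptor that binds serum amyloid A, went from 126 and 133 CPM to 40.6 and 48.0 CPM (log2 -1.57, SE 0.25, edgeR adjusted p = 0.0105), and the list's median log2 was -0.21, against -0.0038 for all genes tested. Tlr2, a receptor for serum amyloid A and bacterial lipoproteins, measured 113 and 149 CPM against 254 and 236 CPM and did not pass (log2 0.89, edgeR adjusted p = 0.117). Of 13 inducers of the acute phase tested in this gate, 1 rose, not named here, and 0 fell. Of 9 complement receptors, 2 regulators, 1 other component, 6 other S100 proteins and 2 other acute-phase proteins tested in this gate, 0 passed. In all, 1 of the 39 tested genes of the lists rose and 1 fell, beside 48 of all 6402 genes called (0.75%). The receptor for C3a, C3ar1, was at 429, 169, 179 and 134 CPM (log2 -1.09, edgeR adjusted p = 0.496).

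In monocyte-gated cells 0 of the 40 genes tested from these 7 lists passed. Irf1, an interferon-induced transcription factor, measured 269 and 121 CPM against 337 and 381 CPM (log2 0.83, edgeR adjusted p = 0.480). Properdin, Cfp, which stabilises the alternative convertase, was at 140 and 63.8 CPM in controls and 63.3 and 61.6 CPM under stress (log2 -0.77, edgeR adjusted p = 0.541). S100a10 was at 1089, 826, 636 and 640 CPM (log2 -0.61, edgeR adjusted p = 0.364). The medians of the lists in this gate ran from -0.77 for other complement components, 1 gene, to 0.16 for inducers of the acute phase, with 0.01 for all genes tested.

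In B-cell-gated cells 2 of the 42 tested genes of the lists passed, against 69 of all 10739 genes (0.643%). Cd55, which protects cells by breaking up C3 convertases, fell from 208 and 272 CPM to 138 and 134 CPM (log2 -0.89, SE 0.18, edgeR adjusted p = 0.0379). Ifng, which encodes interferon gamma, rose from 0.787 and 0.480 CPM to 2.94 and 5.50 CPM (log2 2.80, SE 0.59, edgeR adjusted p = 0.0477), at a level of few UMIs (2, 4, 30 and 48). Over all cells Ifng was at 36.3, 20.9, 43.3 and 40.6 CPM, and the source of its UMIs in the B-cell gate was not tested. In cDC2-gated cells 0 of the 31 tested genes of the lists passed; Irf1 was at 124, 137, 257 and 280 CPM (log2 0.98, edgeR adjusted p = 0.0760).

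Genes with the most similar pattern were sought over the 36 sums of gate and library with at least 30 cells, by Pearson's r of log2(CPM + 1), as a description. The sums of one library share its depth and cells of one sort. C1qa was closest to C1qb (r = 0.983) and C1qc (0.982), and Mrc1 (0.901) and Stab1 (0.888) were also among the closest 5. C3 was closest to Gda (0.939), C5ar1, Hacd4, Pla2g7 and Tlr2 (0.904). Cfb was closest to Gab1 (0.903), and Ms4a8a, Nr1h3 and Ms4a4a (0.844) were also among the closest 5. For S100a8 the list was Gm5483 (0.967), Il1f9, Stfa2l1, Wfdc21 and S100a9 (0.942), and for Lcn2 it was Stfa2l1 (0.937), Wfdc21, Gm5483, Il1f9 and Fpr1 (0.919). Only 1 of the 36 sums is of the neutrophil gate, from stress 2, so these last r-values turn on that sum. Saa3 had no close partner: its highest values were 0.620 for Inhba, 0.596 for Man2a1, 0.582 for Cxcl9, 0.576 for Vill and 0.566 for Sod2.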

How the data were processed

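Single-cell transcriptomes of sorted colon CD45+ leukocytes were deposited by the authors as a matrix of raw UMI counts per gene and barcode for each of the 4 libraries. Per the submitters' processing notes, Cell Ranger 5.0 and mm10 were used; the file headers name software version 3.1.0. No source at hand tells how cells were called. The smallest barcode held 500 UMIs, and only the limit of 10% mitochondrial UMIs (12.9, 11.1, 18.8 and 26.0% of barcodes were over it) removed any.

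Barcodes were gated by 15 lists of 8 markers, needing at least 2 markers and 1 more than any other class. Counts were summed per library and gate. Gates with at least 30 cells in each library were tested with edgeR 4.0.16 (TMM, filterByExpr, robust quasi-likelihood, Benjamini-Hochberg threshold 0.05 over all genes tested, R 4.3.3). The test was checked on counts simulated with a fixed spread and the same composition in every library. That check does not cover libraries that differ in composition or genes with no UMI in a group. The gate difference was fitted with library as a block. DESeq2 1.42.0, RLE scaling, no filter, other limits, other gates, Scrublet and leaving out libraries were alternatives. Scrublet's own threshold marked too few barcodes, so the expected share (0.8% per 1000 barcodes) was left out. CPM were scaled to the gate's UMI total in a library. The 10 genes, the lists and the alternatives were chosen with earlier results of these data known. Pathway genes named are those that passed, plus a choice of at most 3 a list by size of log2 change with a mean of at least 20 CPM; some results of these rules are not reported here. With 2 libraries against 2, an exact permutation test cannot go below p = 0.333, so none was used.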

Additional observations from a re-analysis of the deposited data

Results flagged for a closer look

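The stress effect differed between cell gates for a pair of genes. For C1qb the log2 stress effect was larger in monocyte-gated than in macrophage-gated cells by 1.06 (SE 0.16), and for C1qc by 1.25 (SE 0.24), both past the threshold of edgeR's test of the difference itself (adjusted p = 0.00026 and 0.0173). Neither passed with DESeq2 (adjusted p = 1.00 for each), with classes from clusters (0.68 and 0.80, edgeR adjusted p = 0.0855 and 0.163), without stress 1 (edgeR adjusted p = 0.0555 and 0.271) or without stress 2 (edgeR adjusted p = 0.0676 for each), and C1qc did not without control 1 (edgeR adjusted p = 0.148). The ratio of the monocyte to the macrophage level was higher in both stress libraries than in both controls for each of these genes. Both genes were picked by the test of this difference in the same libraries, so the split is no separate support. The share of all genes that split in this way was not counted. Most C1q UMIs of monocyte-gated cells came from the few cells with 20 or more of them, and in control 2 a single cell held 170 of 171. The third chain, C1qa, gave 0.67 (edgeR adjusted p = 0.964).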

How the results depend on the processing

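Over 500 alternative log2 changes of members, 417 kept direction and side of the threshold, 34 came to pass, 15 no longer passed and 34 changed sign; the cause was not tested. Genes called: with DESeq2, 159 over all cells, 5 in monocytes, 30 in macrophages and 3 for the gate difference (main 0, 3, 48 and 18). With RLE scaling, monocytes gave 1. Without a filter on low counts, monocytes gave 34, macrophages 181, cDC2 98 (main 20), B cells 486 (main 69) and the gate difference 43. With likely doublets left out, monocytes gave 5, B cells 21 and the gate difference 34. With classes from clusters, macrophages gave 18, cDC2 77, B cells 11 and the gate difference 11. The strict gate gave 21 in B cells; it left under 30 cells in a library for monocytes, macrophages, cDC2 and the gate difference and could not be fitted there. A limit of 20 cells, chosen after seeing the data, gave 7 in monocytes and 23 in macrophages. With that limit the gate difference was 3.97 for C1qb (edgeR adjusted p = 8.18e-05), 4.14 for C1qc (0.000608) and 3.47 for C1qa (0.614). Ties added to monocytes, also chosen after seeing the data, gave 20.

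Members called: in monocytes (main 1) 0 with DESeq2, RLE scaling, clusters and without the highest barcode of each library (added after seeing the data), 2 without a filter and with ties (Saa3 and C3 in each) and 2 at the strict gate from 20 cells (C1qb 3.51 and C1qc 3.62, where Saa3 was not among the genes tested). In macrophages (main 1) 2 without a filter and 0 with clusters, in cDC2 (main 0) 3 with clusters, and for the gate difference (main 2) 0 with DESeq2 and with clusters, and 3 without a filter and with likely doublets left out (C1qb, C1qc and Hp in each).

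Sign changes: Hp in monocytes was -0.023 with clusters, and the gate difference of Hp -0.83 at the strict gate from 20 cells. In cDC2 with clusters C1qa was -2.54, C1qb -2.36 and C1qc -3.40. In B cells C1qb was -0.11 with DESeq2, -0.074 at the strict gate and -0.012 without likely doublets, and C1qc -0.18 with DESeq2 and -0.17 without likely doublets.

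The replicate numbers do not pair the libraries in the labels, and with 2 pairs the data cannot show it; same-numbered libraries correlated by -0.16 to 0.03 in their deviations. With the replicate block, genes called were 0 in monocytes, 122 in macrophages, 98 in cDC2 and 389 in B cells, members called in monocytes 0 (Saa3 8.75, edgeR adjusted p = 0.113), and C1qb in cDC2 was -0.55.

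Leaving out each library in turn gave 0 to 3017 genes over all cells (0 to 6 members), 27 to 276 in monocytes (1 to 5), 26 to 368 in macrophages (1 to 5), 28 to 150 in cDC2 (0 to 3), 68 to 1086 in B cells (0 to 3) and 4 to 117 for the gate difference (0 to 3). Log2 changes that changed sign ranged, over all cells, from -0.39 to 3.19 for S100a8, -0.22 to 2.61 for S100a9, -1.66 to 1.28 for C1qb, -1.80 to 1.30 for C1qc, -1.87 to 1.12 for C1qa and -0.029 to 3.003 for C3. In monocytes they ranged from -0.53 to 0.85 for C1qa and -0.26 to 3.60 for Cfb; in macrophages from -0.80 to 0.0014 for C1qb, -0.92 to 0.040 for C1qc and -0.96 to 0.074 for C1qa. In cDC2 they ranged from -4.97 to 1.27 for C1qb, -6.98 to 2.22 for C1qc and -4.26 to 1.88 for C1qa; in B cells from -0.97 to 2.02, -1.06 to 1.48 and -1.34 to 1.10 in the same order. For the gate difference they ranged from -0.16 to 1.41 for C1qa and -2.11 to 0.54 for Cfb. Shares of cells with a UMI depend on depth: thinned to 1000 UMIs the mean share of monocytes with a C3 UMI was 10.8% in controls and 18.7% under stress (33.7 and 55.2% unthinned). Few control monocytes and few neutrophils limit what depth can show.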
